A study of Mus musculus with 13 samples.

Results

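Midbrain dopaminergic neurons make dopamine from tyrosine in 2 enzymatic steps, load it into vesicles, release it and take it back up, and they keep this equipment through life under the control of a small set of transcription factors. The 10 genes described here carry that identity. Th, tyrosine hydroxylase, catalyses the rate-limiting step of catecholamine synthesis, and Ddc, aromatic L-amino acid decarboxylase, converts L-DOPA to dopamine. Slc6a3 is the plasma membrane dopamine transporter and Slc18a2 the vesicular monoamine transporter. Aldh1a1 is a cytosolic aldehyde dehydrogenase made by a ventral set of nigral dopaminergic neurons. Nr4a2 (Nurr1), Pitx3, En1, Foxa2 and Lmx1b are transcription factors that specify or maintain these cells. The neurotoxin MPTP is converted by monoamine oxidase B, largely in glia, to MPP+, which enters dopaminergic neurons through the Slc6a3 transporter and can be held in vesicles by the Slc18a2 transporter. Th, Ddc and Slc18a2 are also made by other monoaminergic neurons, so only Slc6a3 among the synthesis and transport genes is close to restricted to dopaminergic cells.

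The genes were chosen by name, and all 10 of the 49315 genes counted in each library were found by symbol. All 10 passed the filter on low counts and were among the 19360 genes tested. The libraries came from the midbrain of 13 male mice on a C57BL/6J background, 8 to 12 weeks old, with 1 library a mouse. Every mouse carried 2 floxed Ripk3 alleles (Ripk3 fl/fl), and every mouse received tamoxifen (60 mg/kg for 5 days). Cre+ mice also carried Aldh1l1-Cre/ERT2, a tamoxifen-inducible Cre driven by an astrocyte promoter, and Cre- mice were littermates without it. Mice then received MPTP (20 mg/kg daily for 5 days) or saline, and the midbrain was taken 3 days after the last dose. There were 4 Cre+ MPTP libraries and 3 of each other group, named Cre- Saline, Cre+ Saline and Cre- MPTP. The comparisons asked whether MPTP changed RNA levels in the presence or absence of astrocytic Ripk3, and whether the genotypes differed. In bulk tissue, fewer dopaminergic neurons and less RNA per neuron cannot be told apart.

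The libraries held 11489150 to 29397278 counted reads, with a median of 24907639. The lowest total was that of Cre- MPTP replicate 1, a library that stood apart from the rest. It held the lowest or the highest value of all 13 libraries for 75.4% of genes tested, against 4.88% to 19.1% in each other library. Other libraries were high in genes of other tissues, and the source of that RNA was not tested. Cre+ MPTP replicate 4 was high in heart muscle genes, with the cardiac myosin Myh6 at 3296 CPM (reads per 1000000 counted reads, after scaling) against 3.14 to 78.3 elsewhere, while the fast skeletal muscle gene Mylpf was at 1.41 CPM there and at 0.217 to 1.90 elsewhere. The summed level of 12 heart and skeletal muscle genes was 6395 CPM in that library and 15.0 to 149 in the others. Growth hormone (Gh), a pituitary gene, was at 416 and 330.4 CPM in Cre+ Saline replicates 1 and 3 and at most 18.8 elsewhere. Pomc, also a pituitary gene, was at 92.8 and 58.1 CPM in those 2 libraries, at 74.0 CPM in Cre- MPTP replicate 1 and at most 25.6 elsewhere. Cortical Tbr1 was at 17.7 CPM in Cre- Saline replicate 1 and at most 3.64 elsewhere. The choroid plexus gene Ttr was at 56.9 CPM in Cre+ MPTP replicate 1 and at 0.650 to 6.54 elsewhere. Kl, another choroid plexus gene, was at 5.91 CPM there and at 3.63 to 9.43 elsewhere. The part of these libraries in the results below was not tested, except where a value without a library is given.

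The position of Cre- MPTP replicate 1 followed the base composition of transcripts, and the 10 genes spanned that range. Their longest annotated transcripts ran from 46.1% G or C for Aldh1a1 through 54.1% for Th to 68.3% for Pitx3. The first 120 coding bases of Aldh1a1 and Pitx3, read from GENCODE M21 transcripts (GRCm38), are shown because these genes are the ends of that range, with every G and C in capitals. The Aldh1a1 stretch has 56 such bases and that of Pitx3 75. They lie in coding exons within chr19:20602012-20610966 (plus strand) and chr19:46137184-46137482 (minus strand).
Aldh1a1: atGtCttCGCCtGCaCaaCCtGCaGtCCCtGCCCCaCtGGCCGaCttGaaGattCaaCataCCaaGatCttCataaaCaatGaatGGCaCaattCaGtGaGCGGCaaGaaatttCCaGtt
Pitx3: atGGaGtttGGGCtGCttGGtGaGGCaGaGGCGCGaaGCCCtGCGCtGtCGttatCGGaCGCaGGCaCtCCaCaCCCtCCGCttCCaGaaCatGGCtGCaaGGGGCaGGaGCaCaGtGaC

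Against the mean of the other Cre- MPTP libraries, replicate 1 had a median log2 difference of -1.22 over the 1330 genes with a GC content of at most 40% and of 2.05 over the 904 genes above 60%. In the 50 to 55% range, which holds Th, the median was -0.01. The same gap between GC-rich and GC-poor genes was 3.27 in this library and lay between -0.27 and 0.31 in the 10 libraries of the other groups. Of the 10 genes, 5 were below all other 12 libraries in this one, 3 were above them and 2, Th and Lmx1b, were inside their range. The genes below were Aldh1a1, Slc18a2, Nr4a2, Ddc and Slc6a3, all at a GC content of 51.6% or less. Those above were Foxa2, En1 and Pitx3, at 57.0% or more. Among all 19360 genes tested, 8069 were lowest and 6536 highest in this library. Across the 10 genes the difference followed GC content (Pearson's r = 0.86), as a description over genes measured in 1 library. Slc6a3 lay farthest below the median of its GC range, with a log2 difference of -2.27 against -0.01. Fold changes of the genes described singly are therefore also given without this library where it moved them.

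**Figure D1:**
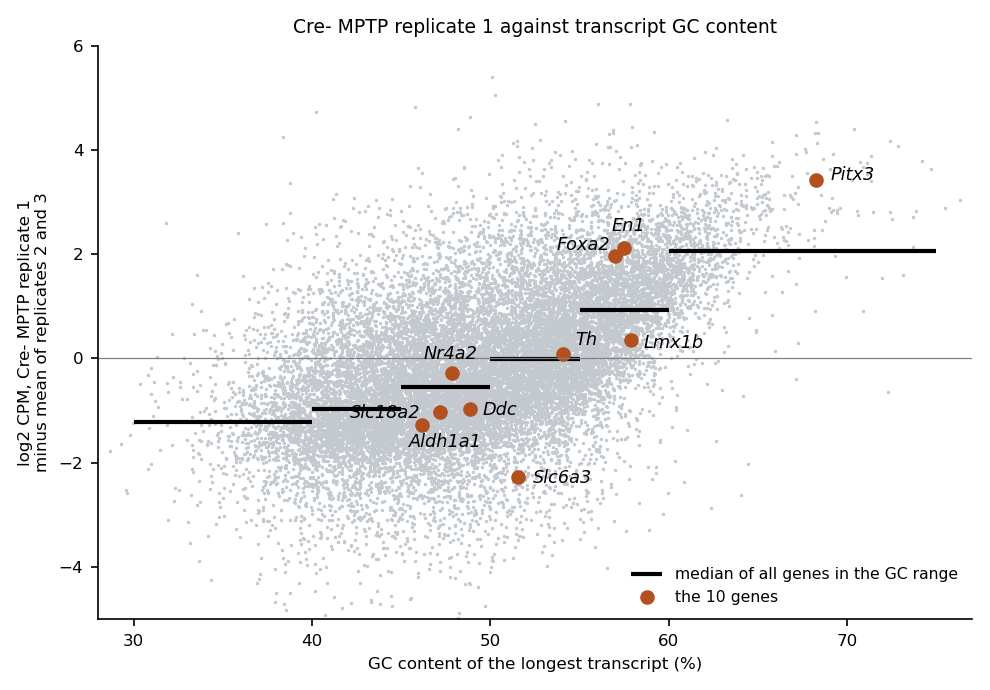
Each grey point is 1 gene, with the GC content of its longest transcript (%) on the x axis and the log2 CPM in Cre- MPTP replicate 1 minus the mean of replicates 2 and 3 on the y axis. Black bars are medians of all genes in each GC range and rise from -1.22 to 2.05, and the 10 labelled genes run from Slc6a3 at -2.27 to Pitx3 at 3.43.

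The genes differed widely in level. Per kilobase of annotated exon, and as a median over the 13 libraries, Aldh1a1 stood at 114.5 CPM per kb, followed by Slc18a2 at 22.4, Ddc at 21.03, Th at 17.9 and Slc6a3 at 14.0. The transcription factors were lower, with En1 at 6.05 CPM per kb, Nr4a2 at 2.80, Lmx1b at 1.43, Foxa2 at 0.852 and Pitx3 at 0.524. Only Aldh1a1 was separated from the next gene in all 13 libraries, with a lowest value of 48.3 against a highest of 26.0 for Slc18a2. The part of cells other than dopaminergic neurons in the Aldh1a1 level was not tested. Slc18a2 was above Ddc in 8 of 13 libraries, so their order is not resolved. Th was above Slc6a3 in 13 of 13 libraries, although the ranges of the genes over libraries overlapped. Without Cre- MPTP replicate 1, Slc6a3 was also separated from En1 (12.2 to 22.4 against 4.34 to 6.85 CPM per kb), and Nr4a2 from Lmx1b (1.98 to 4.64 against 0.756 to 1.84). Pitx3 rested on 7 to 102 reads a library, so its levels carry the largest counting error of the 10.

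Th, the enzyme that starts dopamine synthesis, did not differ between groups beyond the spread of the libraries. Its normalised level was 40.5, 36.0 and 53.6 CPM in Cre- Saline and 42.3, 43.6 and 35.3 CPM in Cre+ Saline. With MPTP it was 48.0, 39.7 and 51.4 CPM in Cre- mice and 44.4, 45.8, 33.4 and 31.9 CPM in Cre+ mice. All 4 groups overlapped, and the library highest in Th was a saline library. Between MPTP and Saline in Cre- mice the log2 fold change was 0.10 (SE 0.20, 95% interval -0.33 to 0.52, edgeR adjusted p = 0.837). In Cre+ mice it was -0.05 (SE 0.18, 95% interval -0.45 to 0.34). Averaged over genotypes, it was 0.02 (95% interval -0.27 to 0.31), an interval that runs from 17.1% lower to 24.1% higher.

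Slc6a3, the transporter through which MPP+ enters, did not separate the groups either. It was at 44.6, 48.3 and 77.4 CPM in Cre- Saline and at 56.5, 48.1 and 45.9 CPM in Cre+ Saline. After MPTP it was at 10.8, 49.6 and 55.5 CPM in Cre- mice and at 51.1, 66.4, 42.3 and 46.4 CPM in Cre+ mice. The 1 low value was Cre- MPTP replicate 1, and the other 12 libraries lay between 42.3 and 77.4. The log2 fold change in Cre- mice was -0.54 (SE 0.43, adjusted p = 0.552, edgeR) and moved to -0.11 (95% interval -0.58 to 0.37) without that library.

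Ddc, the second enzyme, gave the call that depended on the library. Its level was 85.2, 96.5 and 89.8 CPM in Cre- Saline, 92.6, 95.5 and 87.2 CPM in Cre+ Saline and 96.4, 106.1, 93.8 and 91.7 CPM in Cre+ MPTP. In Cre- MPTP it was 69.1, 124.1 and 148.6 CPM. Replicates 2 and 3 of Cre- MPTP were thus the highest of the 13 and replicate 1 the lowest. With all libraries the log2 fold change of MPTP against Saline in Cre- mice was 0.33 (SE 0.21, edgeR adjusted p = 0.455). Without replicate 1, Ddc was higher by 0.60 (SE 0.09, 95% interval 0.39 to 0.80, adjusted p = 0.00129), a 1.51-fold difference on 2 libraries. Cre+ MPTP was then below Cre- MPTP by a log2 fold change of -0.50 (SE 0.09, adjusted p = 0.00738), and the interaction of genotype and treatment was -0.51 (adjusted p = 0.0712). These calls all rest on the same 2 libraries. Without Cre- MPTP replicate 3 in place of replicate 1, the genotype difference was 0.01 (adjusted p = 0.975). In Cre+ mice alone the change was 0.08 (95% interval -0.35 to 0.51). With all libraries and a per-library trend on GC content removed, edgeR did not call Ddc. Its unadjusted p was then under 0.05 in Cre- mice and between genotypes with MPTP, beside 3523 and 3837 of all 19360 genes.

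The Ddc locus has 2 start sites in RefSeq, and the gene count sums both. The 300-base windows around them (250 bases before to 50 after the start, GRCm38.p6, minus strand) are shown because Ddc is the gene called without Cre- MPTP replicate 1, and because they differ in the motifs they hold. The first, chr11:11898095-11898394, holds the NBRE (AAAGGTCA, the monomer element known for the NR4A family) as its reverse complement, beginning 73 bases before the start. The second, chr11:11890359-11890658, holds a FOXA motif (TNTTTAC), also as its reverse complement, beginning 80 bases before the start. Capitals mark the motif.
Ddc first start: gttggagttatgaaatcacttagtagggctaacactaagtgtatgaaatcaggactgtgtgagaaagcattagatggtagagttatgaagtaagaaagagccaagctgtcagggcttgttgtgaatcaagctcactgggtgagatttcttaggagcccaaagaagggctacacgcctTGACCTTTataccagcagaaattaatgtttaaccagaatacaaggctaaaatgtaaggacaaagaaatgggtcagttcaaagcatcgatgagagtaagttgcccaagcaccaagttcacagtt
Ddc second start: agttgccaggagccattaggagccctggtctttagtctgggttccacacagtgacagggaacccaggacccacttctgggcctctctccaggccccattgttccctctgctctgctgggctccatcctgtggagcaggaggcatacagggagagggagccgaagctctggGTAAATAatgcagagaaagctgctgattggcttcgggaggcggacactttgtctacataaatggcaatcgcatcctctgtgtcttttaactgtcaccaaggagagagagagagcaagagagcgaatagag
The 4 motifs were searched on both strands in the 14 RefSeq promoter windows that matched the 10 genes. The NBRE was in 1 of them and in 1.51% of all 32851 promoters, and the FOXA motif in 2 of them, the second in Aldh1a1, and in 12.4% of all. The homeodomain core TAATTA and the PITX motif GGATTA were in none of the 14 and in 5.29% and 7.06% of all promoters.

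Slc18a2 and Aldh1a1 kept to narrow ranges in 12 libraries and were low in the remaining one. Slc18a2 ranged from 70.4 to 98.8 CPM in those 12 and was at 42.9 CPM in Cre- MPTP replicate 1. Aldh1a1 ranged from 205.0 to 269.7 CPM and was at 99.2 CPM there. In Cre- mice their log2 fold changes were -0.18 (SE 0.23) and -0.31 (SE 0.26) with it, and 0.09 (SE 0.13) and 0.00 (SE 0.12) without it. The intervals without it, -0.18 to 0.36 for Slc18a2 and -0.25 to 0.26 for Aldh1a1, were the narrowest among the 10 genes after that of Ddc. An unnamed gene annotated on the opposite strand, Gm29261, overlaps Slc18a2 exons, and it held at most 10 reads in a library.

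Nr4a2, an orphan nuclear receptor that drives Th and Slc6a3 transcription, had a negative fold change with MPTP in both genotypes, without passing the threshold. It was at 14.4, 11.0 and 12.01 CPM in Cre- Saline and at 7.26, 9.74 and 8.06 CPM in Cre- MPTP, and these groups did not overlap. In Cre+ mice it was at 18.8, 11.9 and 12.4 CPM with saline and at 11.3, 14.4, 9.01 and 9.08 CPM with MPTP, and these groups overlapped. The log2 fold change was -0.57 (SE 0.24, unadjusted p = 0.0347, edgeR adjusted p = 0.299) in Cre- mice and -0.39 (SE 0.22, adjusted p = 1.00) in Cre+ mice. In Cre- mice it was -0.48 (SE 0.24, unadjusted p = 0.0664) without Cre- MPTP replicate 1. Averaged over genotypes it was -0.48 (SE 0.16, 95% interval -0.84 to -0.13, unadjusted p = 0.0119, adjusted p = 0.212). Its sign was negative under 16 of 16 alternatives in Cre- mice, 17 of 17 in Cre+ mice and 21 of 21 for the average, and the lowest adjusted p over those of the average was 0.0524. Nr4a2 was the 1 gene of the 10 whose Cre- groups did not overlap, a pattern held by 15.1% of all genes tested. Nr4a2 is also an activity-induced gene. Of 10 immediate-early genes, 1 was called lower for the average, its relative Nr4a1 (log2 fold change -0.98, SE 0.24, adjusted p = 0.0481), and 1 was called lower in Cre- mice, Arc (-0.97, SE 0.20, adjusted p = 0.0195). With all libraries, 2.84% of all genes were called for the average and 3.18% in Cre- mice. Leaving out Cre- MPTP replicate 1, Nr4a1 (-1.04, adjusted p = 0.0143) and Arc (-0.52, adjusted p = 0.00952) were called lower for the average, and Arc (-1.15, adjusted p = 0.000937) in Cre- mice. The shares of all genes called there were 9.14% and 9.38%. The part of immediate-early induction in the Nr4a2 values was not tested.

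Pitx3, En1 and Foxa2 had large fold changes that rested on 1 library. Pitx3 was at 0.285 to 1.28 CPM in 12 libraries and at 11.1 CPM in Cre- MPTP replicate 1. En1 was at 11.4 to 18.0 CPM against 61.0 there, and Foxa2 at 1.14 to 3.29 CPM against 8.13. In Cre- mice, the log2 fold changes with MPTP were 2.03 for Pitx3 (SE 0.82, unadjusted p = 0.0296, adjusted p = 0.284), 0.81 for En1 (SE 0.46) and 0.78 for Foxa2 (SE 0.51). Without that library they were -0.05 (SE 0.45), -0.24 (SE 0.19) and -0.16 (SE 0.33). With a per-library trend on GC content removed, they were 0.53, 0.33 and 0.40. The size and, for the library left out, the direction of these changes thus depended on its treatment.

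Lmx1b, a LIM-homeodomain factor that serotonergic neurons also make, was at 3.69, 7.19 and 8.14 CPM in Cre- Saline and at 8.95, 8.99 and 6.97 CPM in Cre+ Saline. With MPTP it was at 7.04, 4.91 and 6.11 CPM in Cre- mice and at 7.28, 5.93, 4.84 and 5.61 CPM in Cre+ mice. The groups overlapped, and the lowest value of all was in a saline library. The log2 fold change was -0.08 (SE 0.28) in Cre- mice, or -0.20 (SE 0.28) without Cre- MPTP replicate 1, and -0.49 (SE 0.26, 95% interval -1.05 to 0.07) in Cre+ mice.

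**Figure D2:**
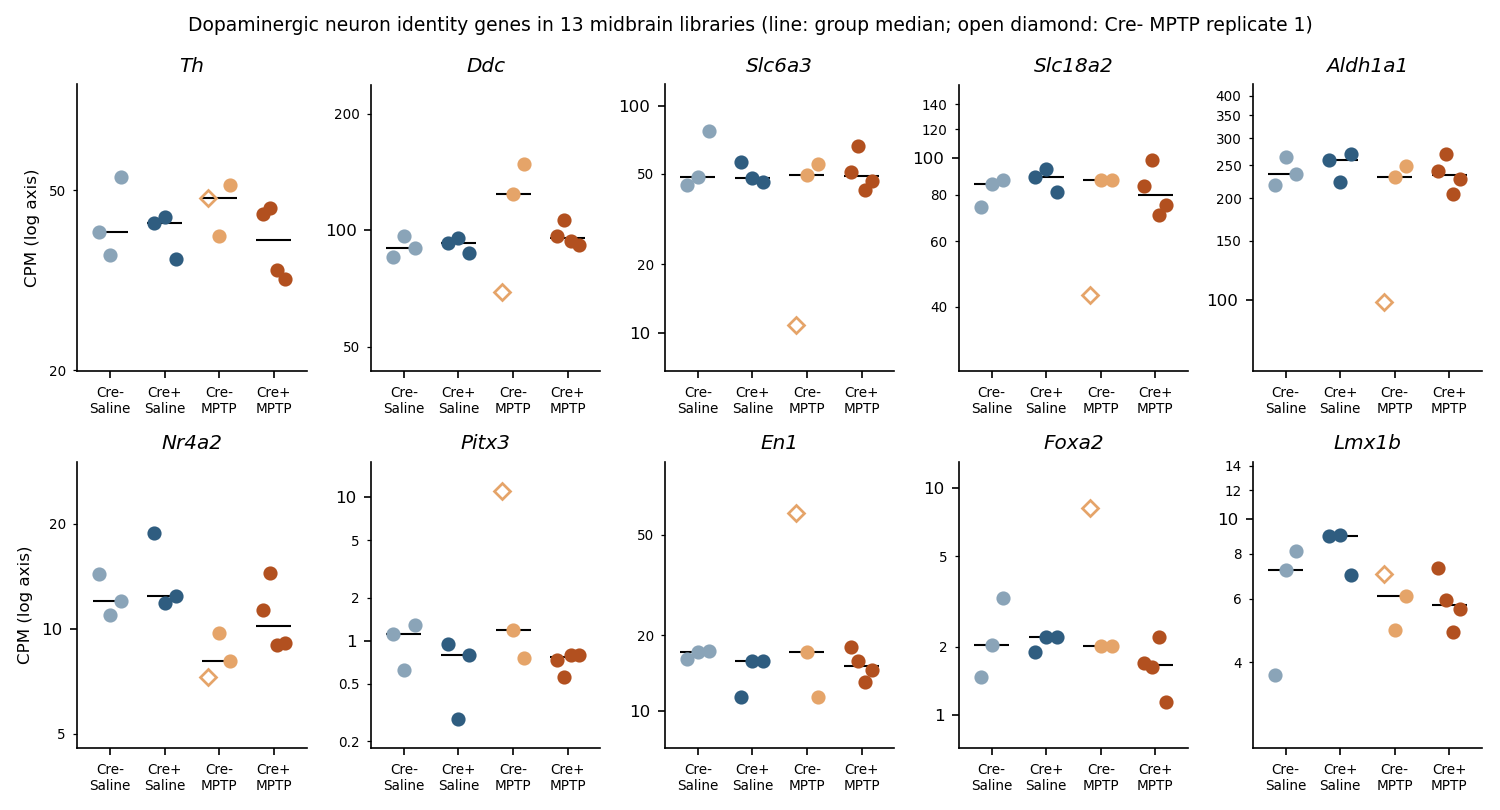
Each panel shows 1 gene, with CPM on a log axis, 1 point a library, and a line at the median of each of the 4 groups. The open diamond, Cre- MPTP replicate 1, lies below the other 12 libraries in 5 panels and above them in 3, and the groups otherwise overlap except for Nr4a2 in Cre- mice, the high Ddc values of the other 2 Cre- MPTP libraries and En1 between the saline groups.

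Counted over the 10 genes, edgeR called 0 in each comparison. Between MPTP and Saline in Cre- mice, 3.18% of all genes tested were called. An unadjusted p under 0.05 was held by 2 of the 10 genes (Pitx3 and Nr4a2), beside 2897 of all 19360 genes. DESeq2 over all libraries called 0 of the 10 there, and limma voom with sample quality weights called 1, Ddc, beside 5.87% and 13.6% of all genes. The median log2 fold change of the 10 was 0.01, beside 0.03 for all genes tested. In Cre+ mice 0% of all genes were called by edgeR. An unadjusted p under 0.05 was held by 0 of the 10, beside 672 of all 19360 genes. DESeq2 over all libraries and limma voom also called 0 of the 10 in Cre+ mice, beside 0.429% and 1.52% of all genes. The median of the 10 was -0.07, beside 0.00 for all genes. Outside the genes already given, Foxa2 stood at -0.33 (SE 0.47), and the other 5 genes lay between -0.10 and 0.10. Averaged over genotypes, 2.84% of all genes were called. At an unadjusted p under 0.05 were 2129 of all 19360 genes and 1 of the 10, Nr4a2. Voom called 1 of the 10 for the average, Ddc, beside 14.3% of all genes, and DESeq2 called 0, beside 5.1%.

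Between genotypes in MPTP-treated mice, edgeR called 1.54% of all genes and 0 of the 10. At an unadjusted p under 0.05 were 3684 of all 19360 genes and 3 of the 10. These were Pitx3 (-2.49, SE 0.77, unadjusted p = 0.00698, adjusted p = 0.161), Foxa2 (-1.22, SE 0.47, adjusted p = 0.211) and En1 (-0.95, SE 0.42, adjusted p = 0.252). They are the 3 genes that were high in Cre- MPTP replicate 1. DESeq2 over all libraries called 1, Pitx3, at -2.62 (adjusted p = 0.0177), and voom called 1, Ddc, at -0.51, beside 4.31% and 6.32% of all genes. Without that library the edgeR values were -0.41 (SE 0.44) for Pitx3, -0.28 (SE 0.32) for Foxa2 and 0.10 (SE 0.18) for En1. Leaving out replicate 2 or 3 in its place, edgeR called 1 of the 10, Pitx3, at -2.93 and -3.01, beside 9.51% and 2.94% of all genes. Th differed by -0.25 (SE 0.18, 95% interval -0.65 to 0.14) and by -0.24 without it. The 2 MPTP groups overlapped for each of the 10 genes, whereas 11.3% of all genes had no overlap. Between MPTP and Saline in Cre+ mice the groups also overlapped for each of the 10 genes, whereas 9.66% of all genes had no overlap.

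In saline-treated mice, where the genotypes differ before any toxin, edgeR called 0% of all genes and 0 of the 10. An unadjusted p under 0.05 was held by 0 of the 10, beside 176 of all 19360 genes. DESeq2 and voom called 0 of the 10, beside 0.0103% and 0.0155% of all genes. The log2 fold changes of Cre+ against Cre- ran from -0.56 for Pitx3 (SE 0.84) to 0.39 for Lmx1b (SE 0.28). En1 was the 1 gene of the 10 without overlap, at 11.4 to 15.9 CPM in Cre+ Saline against 16.2 to 17.3 CPM in Cre- Saline, a separation held by 11.6% of all genes. For the interaction of genotype and treatment, edgeR called 0.0103% of all genes and 0 of the 10. An unadjusted p under 0.05 was held by 0 of the 10, beside 1116 of all 19360 genes. DESeq2 called 0 of the 10 and voom 1, Ddc, beside 1.15% and 3.56% of all genes. The interaction values were 0.58 (SE 0.59) for Slc6a3, -0.25 (SE 0.29) for Ddc and -1.93 (SE 1.14) for Pitx3. The interval for Slc6a3 ran from -0.71 to 1.88 and that for Ddc from -0.89 to 0.38. With Cre- MPTP replicate 1 left out, the interaction was 0.15 (95% interval -0.47 to 0.77) for Slc6a3 and 0.16 (SE 0.61) for Pitx3.

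Without Cre- MPTP replicate 1, the share of all genes called rose to 9.38% between MPTP and Saline in Cre- mice, to 3.18% between genotypes with MPTP, to 1.03% for the interaction and to 9.14% for the average. Of the 10 genes, 1 was called in each of these other than the interaction, Ddc every time, and 0 in the interaction. Shares of 1 in 10 genes were close to the shares over all genes in the Cre- comparison and the average. For the average, Ddc was higher by 0.34 (SE 0.06, adjusted p = 0.00346), Nr4a2 stood at -0.44 (SE 0.16, adjusted p = 0.101) and Th at 0.01 (95% interval -0.26 to 0.28).

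**Figure D3:**
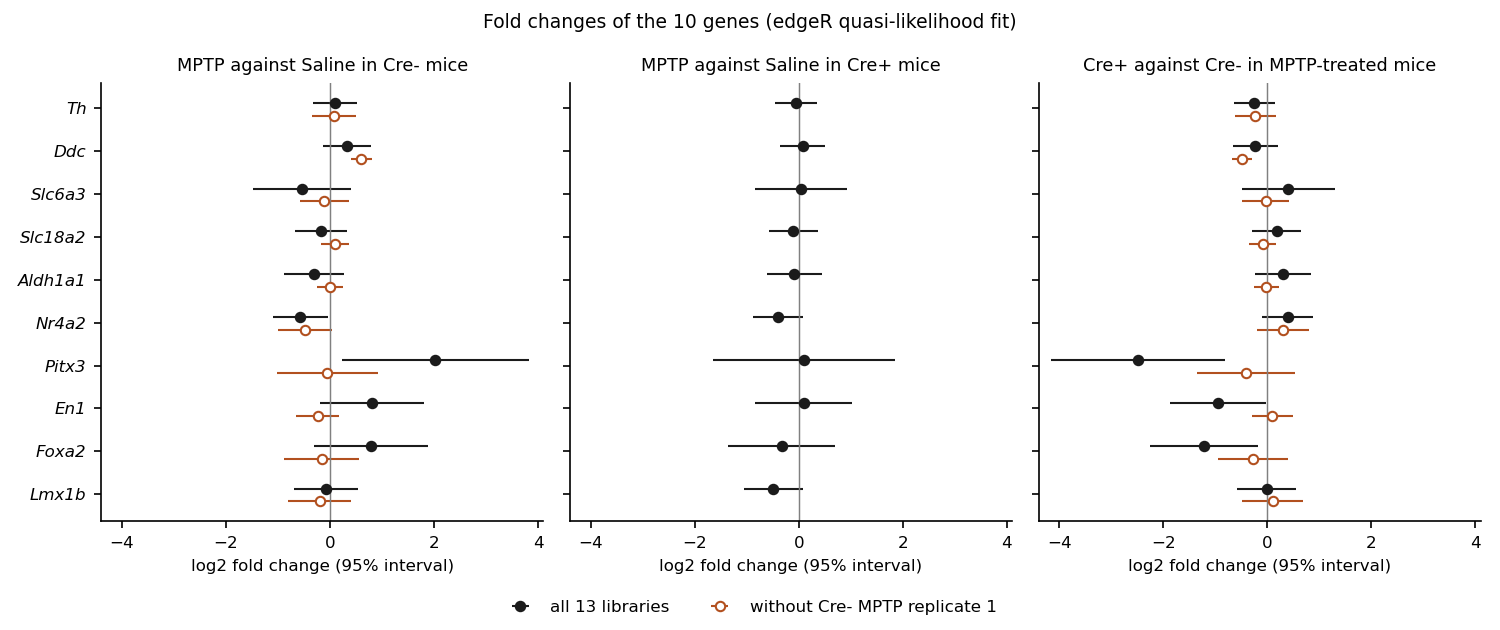
Points are edgeR log2 fold changes with 95% intervals for the 10 genes in 3 comparisons, filled for all 13 libraries and open without Cre- MPTP replicate 1, which does not enter the Cre+ panel. Leaving it out takes Pitx3 from 2.03 to -0.05 in Cre- mice and moves the Ddc interval clear of 0, while Th stays between 0.07 and 0.10.

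The same questions were asked of 20 other genes of dopaminergic neurons, among them the developmental factors Lmx1a, Otx2 and Sox6, the autoreceptor Drd2, the nicotinic subunits Chrna6 and Chrnb3 and the GDNF receptor Ret. In edgeR, 0 of the 20 were called in each of the 6 comparisons. The order below is MPTP in Cre- mice, MPTP in Cre+ mice, genotype with MPTP, genotype with saline, interaction and average. Of all genes, 3.18%, 0%, 1.54%, 0%, 0.0103% and 2.84% were called. An unadjusted p under 0.05 was held by 1, 1, 3, 0, 1 and 1 of the 20. Beside them, 2897, 672, 3684, 176, 1116 and 2129 of all 19360 genes held one. The median log2 fold change of the 20 with MPTP stood at -0.11 without Cre and at 0.00 with it. Ntsr1, the neurotensin receptor, had the smallest p of the list in 4 of these, at -0.48 (SE 0.18, adjusted p = 0.254) in Cre- mice and 0.41 (SE 0.17) in Cre+ mice, with an interaction of 0.89 (SE 0.25, adjusted p = 0.341). Leaving out Cre- MPTP replicate 1, Ntsr1 stood at -0.51 (adjusted p = 0.0981) in Cre- mice, with an interaction of 0.92 (adjusted p = 0.0914). The summed level of the 20 genes was 480.3 to 518 CPM in Cre- Saline, 497 to 518 in Cre+ Saline, 477 to 526 in Cre- MPTP and 459 to 529 in Cre+ MPTP. That of the 10 identity genes was 500.3 to 586, 543 to 582, 365 to 619 and 475 to 625 CPM in the same order. The 526 CPM for the 20 genes was Cre- MPTP replicate 1, where single genes moved in both directions. En2, one of the 20, was at 107.9 CPM there and at 15.4 to 21.8 elsewhere. Sox6 was at 5.09 CPM there against 16.6 to 28.8 elsewhere, and Chrna6 at 2.93 against 10.6 to 16.2. Chrnb3 and Kcnj6 were also lowest in that library. Its sum therefore does not show that the single genes held their levels.

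Of 9 genes of tetrahydrobiopterin supply and dopamine breakdown, edgeR called 0 with all libraries in each comparison, beside 0% to 3.18% of all genes. Qdpr, which regenerates the tetrahydrobiopterin that Th needs, was at 344.4 to 426 CPM in the 6 saline libraries and at 471, 187.4, 159.9, 262, 315, 274.3 and 254 CPM in the 7 MPTP libraries. All MPTP libraries but Cre- MPTP replicate 1 were below every saline library. Without that replicate Qdpr was called lower with MPTP in Cre- mice (-1.22, SE 0.12, adjusted p = 4.85e-05) and for the average (-0.86, SE 0.07), and higher in Cre+ than in Cre- mice after MPTP (0.66, SE 0.11), with an interaction of 0.73 (adjusted p = 0.0330). Maoa, a monoamine oxidase, was the other call, lower for the average (-0.24, SE 0.05, adjusted p = 0.0160). Of all genes, 9.38% were called there in Cre- mice, 9.14% for the average, 3.18% between genotypes with MPTP and 1.03% for the interaction. Maob, the oxidase that activates MPTP, was at 35.6 to 56.1 CPM in the other 12 libraries and at 16.9 CPM in Cre- MPTP replicate 1. Oligodendrocytes, which also make Qdpr, had summed levels over 6 markers of 12489 to 17152 CPM with saline and 9167 to 14404 CPM with MPTP, and their part in the Qdpr values was not tested.

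Th, Ddc and Slc18a2 come from several kinds of monoaminergic neuron, so the levels of the others were set beside them. Of 6 genes of serotonergic neurons and 4 of noradrenergic neurons, edgeR called 0 in each comparison with all libraries, beside 0% to 3.18% of all genes. Without Cre- MPTP replicate 1, the serotonergic factor Fev was called lower in Cre- mice (-1.05, SE 0.25, adjusted p = 0.0179), and Fev (-0.68) and Tph2 (-0.32, adjusted p = 0.0257), the rate-limiting enzyme of serotonin synthesis, were called lower for the average. The shares of all genes called there were 9.38% in Cre- mice and 9.14% for the average. The noradrenergic genes varied between libraries. Dbh, which makes noradrenaline from dopamine, was at 9.48 to 23.9 CPM in 10 libraries, at 2.13 and 4.39 CPM in Cre+ MPTP replicates 3 and 4 and at 0.975 CPM in Cre- MPTP replicate 1. Slc6a2, the noradrenaline transporter, was at 2.31, 4.73 and 1.73 CPM in the same 3 libraries. Hoxb3, a hindbrain gene, was at 0.0887 CPM in Cre+ MPTP replicate 3 and at 1.47 to 6.07 CPM elsewhere. Cre+ MPTP replicates 3 and 4 were also the lowest libraries in Th, at 33.4 and 31.9 CPM. Without either, the log2 fold change of Th in Cre+ mice was 0.01 and 0.03. The part of the noradrenergic share in the Th values of these libraries was not tested.

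**Figure D4:**
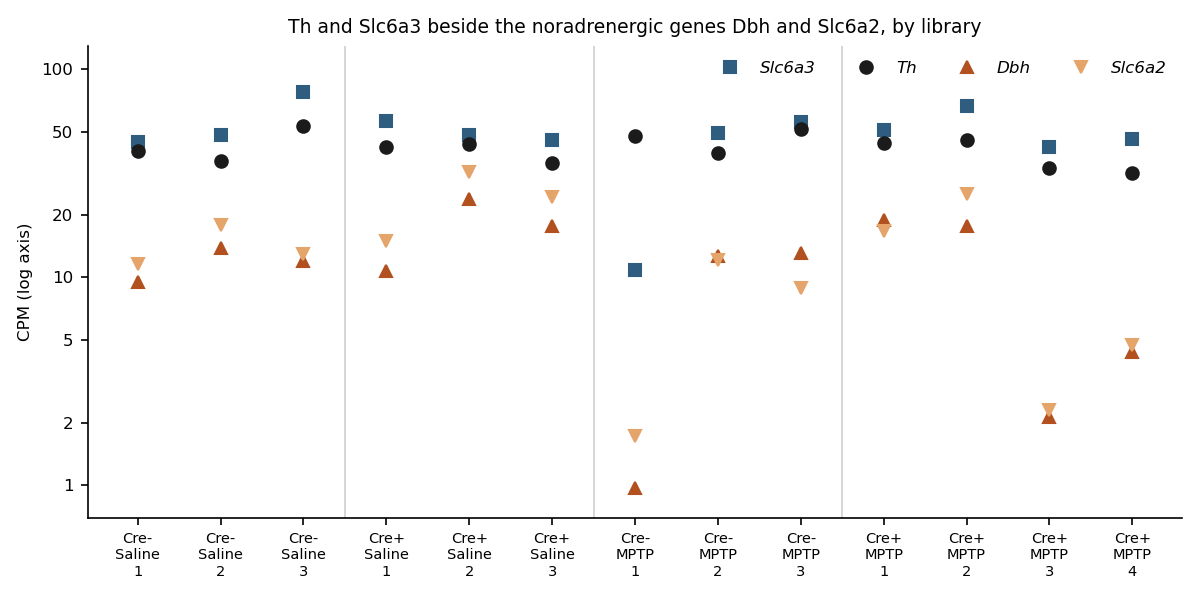
CPM on a log axis for Th, Slc6a3, Dbh and Slc6a2 in each of the 13 libraries, grouped by genotype and treatment and separated by vertical lines, to be read across libraries within a gene. Dbh and Slc6a2 fall below 5 CPM in Cre+ MPTP replicates 3 and 4 and in Cre- MPTP replicate 1, and Slc6a3 is low only in the last of these.

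Deviations from the group means showed how far the genes moved together between mice. Over 13 libraries, 9 genes were correlated with Th, and 0 of 9 passed the threshold after adjustment (exact permutation of libraries within groups, two-sided, 5184 arrangements). The strongest was Lmx1b (Pearson's r = 0.55, permutation p = 0.154, adjusted p = 0.869; Spearman's rho = 0.51, permutation p = 0.181, adjusted p = 0.476), and r was 0.77 without the 2 libraries farthest from the median of Th. For Slc6a3 r was 0.24 (permutation p = 0.475, adjusted p = 0.869) and rho was 0.49 (permutation p = 0.134, adjusted p = 0.476), with an r of 0.21 without the 2 farthest libraries. Without Cre- MPTP replicate 1, chosen after seeing the data, Slc6a3 had the highest r with Th of the 9 (r = 0.82, exact permutation p = 0.0122, adjusted p = 0.109; rho = 0.82, permutation p = 0.0208, adjusted p = 0.188), with 0.77 after leaving out the 2 farthest libraries. Slc18a2 followed (r = 0.69, exact permutation p = 0.0596, adjusted p = 0.268). None of the 9 passed there either. The 45 pairs among the 10 genes had a median r of 0.09 with all libraries, from -0.94 to 0.95, and of 0.29 over 12 libraries.

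**Figure D5:**
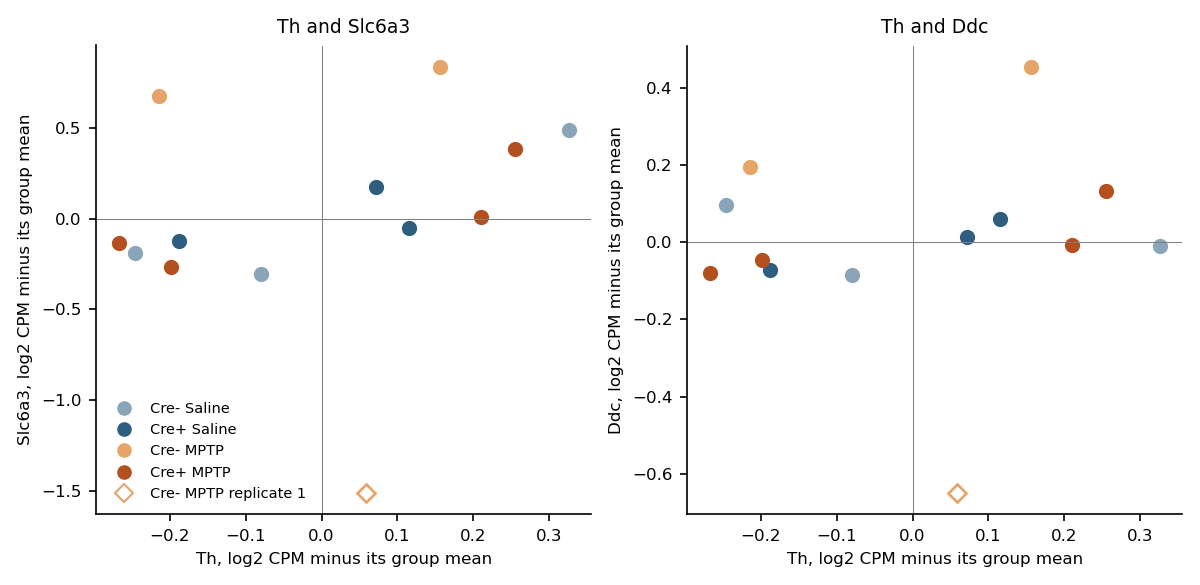
Each point is 1 library, with the log2 CPM of Th minus its group mean on the x axis and that of Slc6a3 (left) or Ddc (right) on the y axis, coloured by group. The open diamond, Cre- MPTP replicate 1, is near 0 for Th and lowest for both other genes, and r for Slc6a3 is 0.24 with it and 0.82 when it is left out and the means are recomputed.

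Ranked by the correlation of log2 CPM with Th over the 13 libraries among 19348 genes, the 5 genes most like Th were 6430531B16Rik (r = 0.85), Mthfsl (0.75), Actn3 (0.74), Hist1h4j (0.74) and Slc16a9 (0.73). The nearest of the other 9 identity genes was Foxa2 at rank 536, and Slc6a3 was at rank 8673. Over the 12 libraries without Cre- MPTP replicate 1, Slc6a3 was at rank 4 (r = 0.79), Slc18a2 at 91, Foxa2 at 854 and Ddc at 1331. These orders describe libraries that share groups, depth and dissection, and carry no test.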

How the data were processed

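RNA was measured by stranded total RNA sequencing (Illumina HiSeq) in 13 midbrain libraries, each from a separate mouse. Per the submitters' processing notes and methods, the authors trimmed reads with Trimmomatic 0.36, aligned them to GRCm38 with STAR 2.5.2b and counted unique hits with featureCounts (Subread 1.5.2). The strand setting of the counting is not given in the sources used here. The deposited values are raw read counts per gene, with no normalisation by the authors.

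The filter on low values required 10 counts or more in 3 libraries or more. The counts were scaled by TMM and tested with the edgeR 4.0.16 quasi-likelihood test in R 4.3.3, with 1 term a group over all 13 libraries, Benjamini-Hochberg adjustment over all 19360 genes and a threshold of 0.05. CPM values use the TMM library sizes, and log2 CPM for correlations has a prior count of 2. GC content came from the longest GENCODE M21 transcript of each gene and was known for 19294 genes tested. The genes and lists were chosen with earlier results of these data known. The rule for named genes was to give all 10 identity genes, and in the other lists the genes called or else up to 3 with the smallest p. Depth limits precision most for Pitx3. Every pair of replicates differed by more than sampling noise (mean chi-square per gene at least 6.80). The script for edgeR was tested on simulated data. Alternatives were DESeq2 1.42.0, limma 3.58.1 voom with sample quality weights, fits on 2 groups, other scaling, no filter, a replicate block, the first digit of the animal number as a term, and each library left out. A per-library GC trend removed, and correlations without Cre- MPTP replicate 1, were added after seeing the data.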

Additional observations from a re-analysis of the deposited data

How the results depend on the processing

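Of 488 values recomputed for 28 fold changes, 448 kept their direction and their side of the threshold, 10 passed the threshold only in the alternative and 30 changed sign. With sample quality weights (limma voom), 1 of the 10 genes, Ddc, was called in each of 4 comparisons, namely MPTP against Saline in Cre- mice, genotype with MPTP, the interaction and the average, beside 13.6%, 6.32%, 3.56% and 14.3% of all genes. With DESeq2 over all libraries 1, Pitx3, was called between genotypes with MPTP, beside 4.31% of all genes. With 1 library left out, the number of the 10 genes called ran from 0 to 1 for MPTP against Saline in Cre- mice, for genotype with MPTP and for the average. The call was Ddc without Cre- MPTP replicate 1, and between genotypes also Pitx3 without Cre- MPTP replicate 2 (-2.93) or 3 (-3.01), beside 9.51% and 2.94% of all genes. With DESeq2 size factors, 2 neighbours in the order of levels were separated in place of 1, in the same order of genes.

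Signs changed with sample quality weights for Slc6a3 (0.013), Slc18a2 (0.035), En1 (-0.35) and Foxa2 (-0.083) in Cre- mice and for En1 between genotypes with MPTP (0.23). Scaling to pan-neuronal counts, which moved the median of all genes by up to 0.14, gave 0.031 for Lmx1b in Cre- mice and 0.066 for Th in Cre+ mice. Removing the GC trend gave -0.027 for Th in the average. With 1 library left out, the ranges in Cre- mice were -0.032 to 0.27 for Th, -0.33 to 0.089 for Slc18a2, -0.54 to 0.0022 for Aldh1a1, -0.052 to 2.55 for Pitx3, -0.24 to 1.20 for En1, -0.16 to 1.14 for Foxa2 and -0.36 to 0.14 for Lmx1b. They were -0.15 to 0.026 for Th in Cre+ mice, -0.046 to 0.11 for Th in the average, -0.50 to 0.0096 for Ddc and -1.33 to 0.10 for En1 between genotypes with MPTP, and -2.45 to 0.16 for the interaction of Pitx3. The values without Cre- MPTP replicate 1 show only how far they depend on that library. The cause of the changes of sign was not tested.

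Of 18 same-numbered pairs of libraries, 3 had a correlation of deviations over 0.1, in a range of -0.18 to 0.18. Pairs with different numbers were not compared, so whether replicate numbers mark pairs was not tested. The fit with the replicate block called 0 of the 10 genes in each comparison, and gave 0.030 for Th in Cre+ mice. Of all 19360 genes, that fit called 428 between MPTP and Saline in Cre- mice, 345 for the average and 0 in each other comparison. Fits on 2 groups gave no value for the interaction or the average. An outlier test (gap over range) was run only in Cre+ MPTP, the group of 4 libraries. There, 0 of the 10 genes exceeded the critical value of 0.829, with a largest ratio of 0.743. Cre- MPTP, the group of the library that stood apart, was not covered. Depth limited Pitx3 most. With 1 library a mouse, p-values rest on the spread between libraries, in which mouse, dissection and library preparation cannot be told apart.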
